A study of Mus musculus with 2 samples.

Results

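The replication-dependent histone genes encode the bulk of the H1, H2A, H2B, H3 and H4 proteins that package newly made DNA. They lie in clusters and are transcribed during S phase at the histone locus body, a nuclear body built on the coactivator NPAT, with HINFP acting on H4 genes and OCT1 on H2B genes. Their transcripts end in a stem-loop bound by SLBP instead of a poly(A) tail, and their promoters are short and compact. Histone variants such as H2A.Z and H3.3 come from separate genes that are also transcribed outside S phase. The genes described here were chosen by name alone, as protein-coding genes of the GENCODE mouse annotation with symbols beginning Hist1h, Hist2h, Hist3h or Hist4h on chromosomes 13, 3, 11 and 6. There were 67 such genes among 21938 protein-coding genes, of which 54 lay on chromosome 13, 10 on chromosome 3, 2 on chromosome 11 and 1 on chromosome 6. By class they were 6 H1, 18 H2A, 18 H2B, 12 H3 and 13 H4 genes.

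Open chromatin was profiled in dorsal skin of mouse embryos at E16.5 by single-cell ATAC-seq, in which a transposase cuts accessible DNA, with 1 Control library and 1 MOF cKO library. In MOF cKO embryos, floxed Mof (Kat8), which encodes the acetyltransferase of histone H4 lysine 16, was deleted by Krt14-Cre, which acts in skin epithelium, so other skin cells keep the gene. Cells of both libraries carried Krt14-H2BGFP and were sorted, and by the labels GFP-positive epithelial cells were put back together with GFP-negative cells at 5 parts to 1. The descriptions of this mix in the sources differ, so its ratio is uncertain. The labels give no further detail of the Control genotype. The reporter is itself an H2B fusion, and its transgene was not analysed here. With 1 library per genotype no difference was tested, and the 95% intervals below cover counting error only, not variation between embryos or preparations.

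Cut sites in peaks numbered 169641002 over 2541 barcodes in Control and 324310197 over 4348 barcodes in MOF cKO, and 21 barcodes occurred in both. Cells were grouped by clustering that left out the promoter regions of the histone genes and of the lists of histone regulators, chaperones, variants and S phase genes, and clusters were named from marker promoters such as Krt14 and Krt5 for epithelium or Col1a1 and Pdgfra for fibroblasts. This gave 1274 Control and 2625 MOF cKO epithelial-like cells, 755 and 1266 fibroblast-like cells, and 46 and 280 immune-like cells. Levels are site counts scaled to 1000000 sites in regions with a peak in both libraries (CPM). At the promoter of Kat8 itself, epithelial-like cells had 49.8 CPM in Control and 36.7 CPM in MOF cKO, and fibroblast-like cells 33.8 and 27.9 CPM, and the promoter does not report on the deletion inside the gene. Cluster 13, with 95 Control and 3 MOF cKO cells, was named fibroblast-like but was deep and carried epithelial signal, with basal keratin and integrin promoters at 18.4 CPM and a median doublet score of 0.88. It held 30.02% of the Control fibroblast-like sites, so the main fibroblast-like results are given with and without it.

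To show what these promoters look like, the 150 bases before the RefSeq start site (GRCm38) are printed for the genes with the most sites in the H1, H2A, H2B and H4 classes, for Hist4h4, which had the lowest change in MOF cKO epithelial-like cells, and for Hist2h3c2, whose summed value was higher there. Capitals mark the TATA box with the letters TATAAA, the CCAAT box, the octamer element ATTTGCAT, the GC box with the letters GGGCGG, the linker histone element AAACACA and the E2F-type site TTTCCCGC, each on either strand. The stretches are chr13:23763518-23763667 (plus strand) for Hist1h1a, chr13:23683960-23684109 (minus) for Hist1h2ac, chr3:96269550-96269699 (plus) for Hist2h2bb, chr13:23761250-23761399 (minus) for Hist1h4a, chr6:136804432-136804581 (minus) for Hist4h4 and chr3:96239128-96239277 (minus) for Hist2h3c2. All lie upstream of the RefSeq start, and the Hist2h2bb stretch also falls in an exon of Gm20628 on the other strand.
Hist1h1a: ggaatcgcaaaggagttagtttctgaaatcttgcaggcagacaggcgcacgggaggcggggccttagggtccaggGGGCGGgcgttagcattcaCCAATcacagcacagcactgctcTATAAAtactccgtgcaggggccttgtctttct
Hist1h2ac: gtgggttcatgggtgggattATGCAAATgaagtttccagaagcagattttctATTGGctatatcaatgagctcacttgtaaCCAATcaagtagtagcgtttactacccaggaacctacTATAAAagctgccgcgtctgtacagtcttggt
Hist2h2bb: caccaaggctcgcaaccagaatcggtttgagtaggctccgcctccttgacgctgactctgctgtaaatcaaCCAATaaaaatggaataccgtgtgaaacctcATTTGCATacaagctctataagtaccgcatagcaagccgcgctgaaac
Hist1h4a: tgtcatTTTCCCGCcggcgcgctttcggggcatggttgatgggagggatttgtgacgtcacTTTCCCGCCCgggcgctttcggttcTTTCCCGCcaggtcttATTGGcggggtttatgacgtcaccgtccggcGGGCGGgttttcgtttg
Hist4h4: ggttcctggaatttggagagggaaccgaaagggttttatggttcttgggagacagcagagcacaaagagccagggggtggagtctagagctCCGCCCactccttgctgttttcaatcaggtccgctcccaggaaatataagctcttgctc
Hist2h3c2: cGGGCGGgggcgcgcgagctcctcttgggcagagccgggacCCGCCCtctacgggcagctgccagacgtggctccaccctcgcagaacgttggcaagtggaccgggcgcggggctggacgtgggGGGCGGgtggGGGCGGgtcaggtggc

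Hist1h1a and Hist1h2ac held a CCAAT box followed by TATAAA close to the start. Hist2h2bb held a CCAAT box and an octamer, the element bound by OCT1. The Hist1h4a stretch held 3 E2F-type matches, a CCAAT box, GC boxes and no TATAAA, although the longer window of this gene, counted below, held TATAAA. The stretches of Hist4h4 and Hist2h3c2 held GC boxes and none of the other motifs.

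Over the window from 250 bases before to 50 after the start, RefSeq sequences were matched for 62 of the 67 genes. Of these, 35 (56.5%) held TATAAA, against 13.3% of 17491 protein-coding promoters, and 53 (85.5%) held CCAAT, against 39.0%. On the gene's own strand, TATAAA began at a median of 32 bases before the start, and 12 of 31 matches began between 40 and 20 bases before it. CCAAT was found in every matched H1, H2A, H2B and H3 window but in only 3 of 12 H4 windows. The octamer was in 7 of 18 H2A and 6 of 16 H2B windows and in no H1, H3 or H4 window, against 1.71% of all promoters. H2A and H2B genes often stand head to head, so these windows overlap within pairs. The H1 box AAACACA was in 5 of 6 H1 windows and in 9 windows in all (14.5%, against 6.13%). GGGCGG was in 23 windows (37.1%, against 46.3%), among them 9 of 12 H4 windows but only 1 of 16 H2B windows. TTTCCCGC was in 1 window, that of Hist1h4a, against 1.46% of all promoters. Most of these motifs thus differed in frequency between the histone classes.

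A promoter region was a region with a peak in both libraries within 500 bp of an annotated start. Of the 67 genes, 59 had such a region, over 54 distinct regions, compared with 15877 of all protein-coding genes. Shared regions were common, since 22 of the histone genes had a region in common with another histone gene. In 9 cases the pair was 1 H2A and 1 H2B gene, and such genes have identical values wherever their only region is shared. Hist2h2ab shared its region with Bola1 and Hist3h2a with Trim17, which are not histone genes.

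The 8 genes without a value were Hist1h2bq, Hist1h2ao, Hist1h2ap, Hist1h2br, Hist1h1d, Hist1h2ba, Hist1h2aa and Hist2h3c1. In the windows of Hist1h2bq, Hist1h2ao, Hist1h2ap and Hist1h2br, 100% of 50-base words occurred elsewhere in the genome, and neither library had a peak there. Hist2h3c1, with 94.8% of its words repeated, had a peak in the Control library alone. Hist1h2ba and Hist1h2aa, which encode testis histones, had no peak although only 13.7% and 0.840% of their words were repeated. Hist1h1d, which encodes linker histone H1.3, had no peak at its GENCODE start, but its RefSeq start lay 1770 bp away in a region with a peak in both libraries. At that start, a choice made after its values were seen, epithelial-like cells had 21.1 CPM in Control and 11.4 CPM in MOF cKO, a log2 change of -0.88 (-1.01 to -0.76). It is in no count below.

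In Control epithelial-like cells the histone promoters were open. Per kb of region, the median histone gene had 33.7 CPM and the median of all promoters 20.6 CPM, and 43 of the 59 lay above that median of all. The most open per kb were Hist2h2bb (62.4 CPM per kb), Hist1h4a (60.3 CPM per kb) and Hist3h2a (51.4 CPM per kb). The least open was Hist1h1t, the testis linker histone gene, at 1.48 CPM per kb. Hist1h4m, Hist2h3c2, Hist2h2aa2 and Hist1h4n came next, at 3.27, 3.76, 4.46 and 4.98 CPM per kb, with 94.2%, 94.8%, 70.3% and 95.2% of their words found elsewhere. Their low counts cannot be told apart from the loss of reads that match several places.

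Within Control, the same promoters were within 2-fold in epithelial-like and fibroblast-like cells. The median log2 ratio of epithelial-like over fibroblast-like CPM was 0.15 over the histone genes and -0.15 over all promoters, and it ran from -0.39 for Hist2h3b to 0.96 for Hist3h2ba. None of the 59 was 2-fold higher in epithelial-like cells, against 7.7% of all promoters, and none was 2-fold lower, against 7.17%. Without cluster 13 the medians were 0.19 and -0.18, and Hist3h2ba, at 1.16, passed 2-fold (1 of 59, against 9.96% of all). Hist1h4a had the highest CPM in both, at 66.2 CPM in fibroblast-like and 54.7 CPM in epithelial-like cells.

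In epithelial-like cells, the histone promoters were less accessible in MOF cKO than in Control. The median log2 change (MOF cKO over Control) was -0.70, with quartiles of -0.84 and -0.58, against -0.40 over all promoters. Of the 59 genes, 58 were lower in MOF cKO (84.2% of all promoters were), and 49 lay in the lowest 25% of all promoters. The interval of 51 lay wholly below the median of all promoters, against 29.5% of all. Large changes were few, since only Hist4h4 and Hist1h1b fell 2-fold or more (2 of 59, against 2.27% of all), and none rose 2-fold (2.49% of all). Set against the median of all promoters, 3 genes were lower by 1.5-fold or more (2.37% of all) and 1 was higher by that much (10.7% of all). The lower values were thus spread over nearly every gene, and most of them were of less than 2-fold. The 2-fold count depended on the total, with 15 genes when scaled to all peaks of a library (4.16% of all promoters) and none when scaled to promoter sites (0.535% of all).

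Because many promoters of all kinds lost sites in these cells, the histone genes were also counted as a share of promoter sites. Promoter regions held 37.6% of epithelial-like sites in Control and 28.7% in MOF cKO. The 54 histone regions held 0.344% of those promoter sites in Control (0.341 to 0.347) and 0.277% in MOF cKO (0.275 to 0.279), a log2 change of -0.31 (-0.33 to -0.30). Promoters about as open as the histone genes had a smaller change. Among 5249 other promoters with a Control level between the histone quartiles of 18.8 and 39.6 CPM per kb, the median log2 change was -0.44. Depth per cell also differed, with a median of 72746 sites per epithelial-like cell in Control and 84469 in MOF cKO. With each cell thinned to 5000 sites, the median epithelial-like cell had a site in 5 histone regions in Control (quartiles 4 and 7) and in 3 in MOF cKO (2 and 4). In thinned fibroblast-like cells the medians were 5 in Control (3 and 6) and 4 in MOF cKO (3 and 6). Without thinning the medians were 27 and 21 in epithelial-like cells and 25 and 19 in fibroblast-like cells. The fibroblast-like counts include the deep cluster with epithelial signal. No count per cell over all promoters was set beside these. In thinned epithelial-like cells the median log2 change was -0.73 over the histone genes and -0.38 over all promoters.

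**Figure D1:**
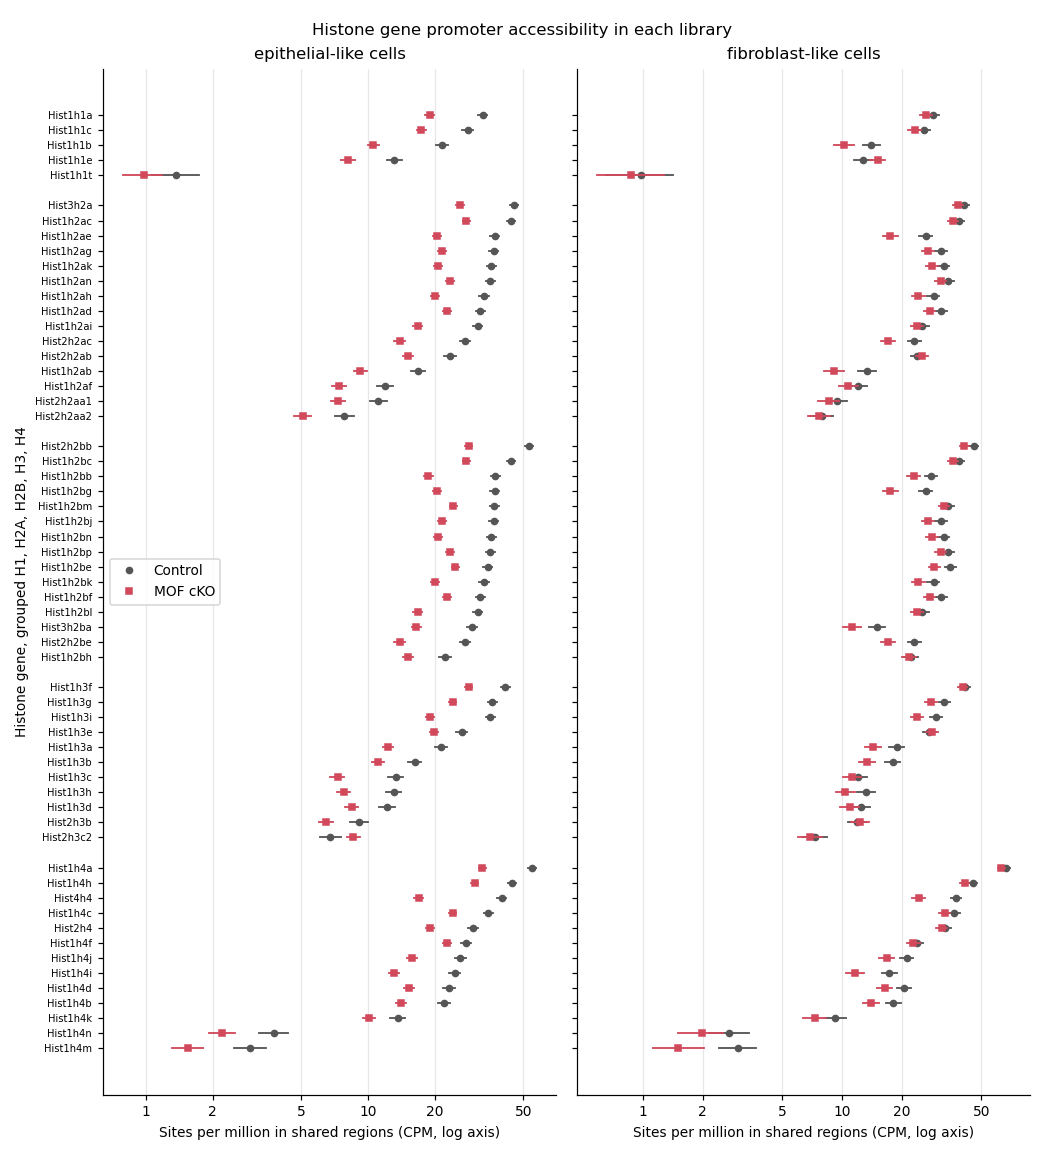
Accessibility of the 59 histone gene promoters in Control (circles) and MOF cKO (squares), in CPM on a log axis, for epithelial-like cells on the left and fibroblast-like cells on the right. Bars are 95% counting intervals and genes are grouped by histone class. In epithelial-like cells the MOF cKO value is the lower of the pair for 58 of 59 genes, while in fibroblast-like cells it is the lower for 55, mostly by less, with the widest pair at Hist1h4m.

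Linker histone H1 binds DNA where it enters and leaves the nucleosome. Hist1h1a (H1.1; chromosome 13, start 23763666) had 32.8 CPM in Control epithelial-like cells and 18.9 CPM in those of MOF cKO, a log2 change of -0.79 (-0.89 to -0.70). Hist1h1c (H1.2; start 23738808) had 28.0 and 17.3 CPM, a change of -0.70 (-0.80 to -0.59). Hist1h1b (H1.5; start 21780625) went from 21.5 to 10.6 CPM, a change of -1.02 (-1.15 to -0.90), and lay in the lowest 2.06% of all promoters. With a window of 1000 bp its change was -0.65, short of 2-fold. The 5 H1 genes with a value had a median change of -0.70. The exception in level was the testis gene Hist1h1t, which had only 1.37 CPM in Control and 0.978 CPM in MOF cKO, a change of -0.49 (-0.96 to -0.03).

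H2A and H2B form the dimers that flank the H3-H4 tetramer in the nucleosome core. Among 15 H2A genes with a value, Control levels ran from 7.83 to 45.2 CPM and MOF cKO levels from 5.07 to 27.6 CPM, with a median change of -0.74. Hist3h2a (chromosome 11, start 58954685) had 45.2 and 25.9 CPM, a change of -0.80 (-0.89 to -0.72). Hist1h2ac and Hist1h2bc, a head-to-head pair with 1 shared region (chromosome 13, starts 23683948 and 23684199), had 44.1 CPM in Control and 27.6 CPM in MOF cKO, a change of -0.68 (-0.76 to -0.59). All 15 H2A genes were lower in MOF cKO, and so were all 15 H2B genes with a value (84.2% of all promoters were).

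H2B had the lowest median change of the classes, -0.77. Hist2h2bb (chromosome 3, start 96269752), whose promoter holds the octamer printed above, went from 53.1 to 28.4 CPM, a change of -0.90 (-0.98 to -0.83). Hist1h2bb (chromosome 13, start 23746734) went from 37.3 to 18.7 CPM, a change of -0.996 (-1.09 to -0.90). The shared region of Hist2h2be and Hist2h2ac on chromosome 3 went from 27.3 to 13.8 CPM, a change of -0.98 (-1.09 to -0.87), just short of a 2-fold fall. At the other end of the class, Hist1h2be went from 34.6 to 24.7 CPM, a change of -0.49 (-0.58 to -0.40), with the upper end of its interval close to the median of all promoters.

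H3 and H4 form the tetramer at the centre of the nucleosome, and H4 carries the lysine that MOF acetylates. H3 genes had the highest median change of the classes, -0.55 over 11 genes. Hist1h3f (chromosome 13, start 23544052) had 41.4 CPM in Control and 28.3 CPM in MOF cKO, a change of -0.55 (-0.63 to -0.46). That value summed 2 regions, neither of them over the start, and 1 of them shared with Hist1h2bh. In Control they had 22.2 CPM (the shared region) and 19.3 CPM, and their changes were -0.56 and -0.54. Hist1h3g (start 23535422) had 36.2 and 24.01 CPM, a change of -0.59 (-0.68 to -0.50). Hist1h3e had 26.4 and 19.8 CPM, a change of -0.41 (-0.52 to -0.31), which is close to the median of all promoters.

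Hist2h3c2 (chromosome 3, start 96239127) was the single histone gene with a higher value in MOF cKO, at 6.76 CPM in Control and 8.59 CPM in MOF cKO, a change of 0.35 (0.16 to 0.53). Its value summed 2 regions that moved in opposite directions. The region over its own start, shared with Hist2h2aa2, went from 1.87 to 0.988 CPM, a change of -0.92 (-1.35 to -0.50). The other region, centred 944 bp away, went from 4.89 to 7.598 CPM, a change of 0.64 (0.43 to 0.85). The higher value thus came from the more distant region, whose repeats were not measured, and it was -0.92 with a window of 100 bp. Of 6 genes whose value summed several regions, the regions of 4 had intervals that did not overlap, Hist2h3c2, Hist1h4h, Hist1h3i and Hist1h4j, the last 2 named after their values were seen.

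The 13 H4 genes had a median change of -0.65 and a wide range. Hist4h4 (chromosome 6, start 136804415), the single gene of the list on chromosome 6, went from 39.9 CPM in Control to 16.9 CPM in MOF cKO, a change of -1.24 (-1.34 to -1.15), and lay in the lowest 0.913% of all promoters. With peaks of either library counted its change was -0.84, short of 2-fold. Hist1h4a (chromosome 13, start 23761230) went from 54.7 to 32.7 CPM, a change of -0.74 (-0.82 to -0.67). Hist1h4h (start 23531050) went from 44.5 to 30.2 CPM, a change of -0.56 (-0.64 to -0.48). That value summed 2 regions, -0.87 (-0.98 to -0.75) for the one over the start and -0.28 (-0.39 to -0.17) for one centred 664 bp away, and it was -0.26 with peaks of either library counted. Hist1h4k went from 13.6 to 10.1 CPM, a change of -0.43 (-0.57 to -0.28), and Hist1h4f from 27.6 to 22.7 CPM, a change of -0.28 (-0.38 to -0.18). Of the genes with a lower value in MOF cKO, Hist1h4f alone lay above the median of all promoters, and its change was 0.11 when scaled to promoter sites.

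The motifs were set beside the change as a description. The 32 genes with TATAAA had a median change of -0.74 and the 22 without it -0.63. The 11 with the octamer, all of them H2A or H2B genes and some sharing a region, had a median of -0.86, and the 43 without it -0.64. With and without CCAAT the medians were -0.70 (45 genes) and -0.72 (9 genes), and with and without GGGCGG -0.64 (21 genes) and -0.74 (33 genes). For AAACACA they were -0.70 (6 genes) and -0.73 (48 genes), and the single gene with TTTCCCGC, Hist1h4a, is given above. None of these pairs was tested, and genes with a shared region count more than once.

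In fibroblast-like cells, where Krt14-Cre is not expected to act, the histone promoters were also lower in MOF cKO, by less except when scaled per cell. Per cell the median was -0.80, against -0.67 for epithelial-like cells (-0.62 and -0.37 over all promoters). Per-cell values are not scaled for depth, and fibroblast-like cells had a median of 70014 sites in Control and 52694 in MOF cKO. The per-cell values include cluster 13, with 30.02% of the Control fibroblast-like sites, and were not computed without it. On the main scale the median log2 change was -0.19, with quartiles of -0.34 and -0.10, against -0.01 over all promoters. Of the 59 genes, 55 were lower (52.6% of all promoters were) and 41 lay in the lowest 25%. The interval of 32 lay wholly below the median of all promoters (17.1% of all). None fell 2-fold or more (3.67% of all) and none rose 2-fold (0.832% of all), while per cell 13 fell 2-fold or more (9.42% of all). The histone share of promoter sites went from 0.287% to 0.251%, a log2 change of -0.19 (-0.21 to -0.17).

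Without cluster 13 the fibroblast-like difference was smaller. The median change was then -0.16, against -0.03 over all promoters, with 54 of 59 genes lower (58.2% of all), 1 of them, Hist1h4m, by 2-fold or more (0.806% of all), 38 in the lowest 25% and 21 with an interval below the median of all (13.1% of all). The share of promoter sites went from 0.274% to 0.251%, a log2 change of -0.13 (-0.15 to -0.10). The epithelial-like median was about the same when the shallow cluster 12, of 103 MOF cKO cells, was left out, at -0.70. Of the single genes, Hist4h4 was lower in fibroblast-like cells too, at 37.4 and 24.2 CPM, a change of -0.63 (-0.76 to -0.49) and -0.57 (-0.72 to -0.42) without cluster 13. Hist1h1b had 14.05 and 10.3 CPM, a change of -0.45 (-0.67 to -0.24) and -0.33 (-0.57 to -0.08) without it. Hist1h2bb had 28.0 and 22.8 CPM, a change of -0.30 (-0.44 to -0.15), which without cluster 13 was -0.15 (-0.32 to 0.02), an interval that includes 0. Of the other genes with the most sites in their class, Hist1h1a, Hist1h1c, Hist1h2ac, Hist1h2bc, Hist3h2a and Hist1h3f had intervals that included 0 with and without cluster 13. Those of Hist2h2bb, Hist1h3g and Hist1h4h lay below 0 both ways. The interval of Hist1h4a included 0 with cluster 13, at -0.07 (-0.16 to 0.02), and lay below 0 without it, at -0.12 (-0.22 to -0.01). With median-of-ratios scaling over shared regions, where the median of all promoters was 0.16, 31 of the 59 genes were lower (19.3% of all).

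The change in epithelial-like cells was lower than that in fibroblast-like cells for 57 of the 59 histone genes, and for 81.4% of all promoters. The median difference was -0.49 over the histone genes and -0.38 over all promoters. This depended on the scale, since the count was 39 (48.5% of all) with median-of-ratios over promoters and 10 (12.3% of all) per cell, where the median differences turned to 0.15 and 0.25. These per-cell values carry the differences in depth per cell, include cluster 13 and were not computed without it. On the main scale without clusters 12 and 13 the median differences were -0.54 and -0.38. Both classes come from the same 2 libraries, so the preparation of each library is common to them, and its part in the change was not tested. The immune-like cells, which number 46 in Control, had a histone share of 0.267% in Control and 0.256% in MOF cKO, a log2 change of -0.06 (-0.15 to 0.02).

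**Figure D2:**
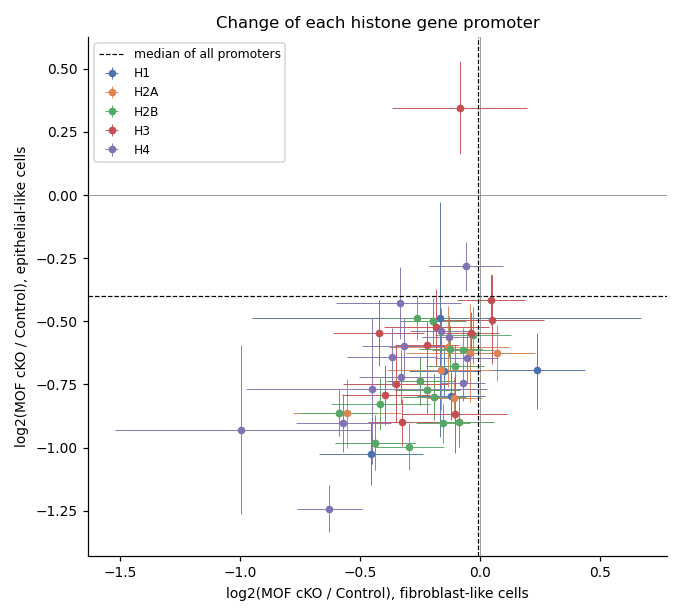
Log2 change (MOF cKO over Control) of each histone gene promoter in fibroblast-like cells (horizontal) and epithelial-like cells (vertical), coloured by histone class, with 95% counting intervals and dashed lines at the medians of all promoters. Nearly all genes lie below the horizontal dashed line, Hist2h3c2 stands alone above 0 at 0.35, and Hist4h4 lies lowest at -1.24.

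The clusters of cells were compared by the share of promoter sites in histone regions. Among Control epithelial-like cells, cluster 4 (756 cells, with more suprabasal marker signal) had 0.362% (0.358 to 0.365) and cluster 7 (518 cells, with more hair follicle marker signal) had 0.324% (0.320 to 0.328). The MOF cKO epithelial-like cells fell almost entirely into clusters of their own. Cluster 1 (1219 cells) had 0.275% (0.272 to 0.277), cluster 5 (702 cells) 0.250% (0.246 to 0.254) and cluster 6 (566 cells) 0.310% (0.306 to 0.315). Clusters 1, 5 and 6 thus all lay below both large Control clusters, and they differed among themselves. A further shallow Control cluster, number 9 (334 cells, 10 of 12 epithelial markers up, left unnamed and out of the class), had 0.313% (0.295 to 0.331), which overlaps cluster 6. Cluster 5 had the least basal marker signal of these, at 19.7 CPM against 26.8 CPM in cluster 1 and 27.3 CPM in cluster 6. The shallow cluster 12, whose cells had a median of 17618 sites, had 0.321% (0.304 to 0.339), which overlaps Control cluster 7.

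In the 8 clusters that held at least 20 cells of each library, the genotypes could be set side by side, a comparison added after the values were seen. In epithelial-like cluster 7, with 518 Control and 25 MOF cKO cells, the median histone change was -0.25 against -0.15 over all promoters, and 46 of 59 genes were lower (64.0% of all). In fibroblast-like clusters 2, 3 and 8 the histone medians were -0.03, -0.16 and -0.02, against 0.05, -0.03 and -0.01 over all promoters. The log2 change of the share of promoter sites was -0.09 (-0.14 to -0.03), -0.11 (-0.15 to -0.07) and 0.02 (-0.05 to 0.09) in these clusters. Within fibroblast-like clusters the difference was therefore small, and in cluster 8 its interval included 0. The largest distance from all promoters was in cluster 14, which has no name, with 32 Control and 55 MOF cKO cells, where the medians were -0.30 and -0.02 and the log2 change of the share was -0.15 (-0.25 to -0.05). The log2 change of the share was -0.07 (-0.16 to 0.03) in the unnamed cluster 11, and in the immune-like clusters 10 and 15 it was -0.11 (-0.22 to -0.01) and 0.01 (-0.16 to 0.19). The MOF cKO cells in cluster 7 were those that clustered with Control cells, so their values do not stand for MOF cKO epithelium.

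**Figure D3:**
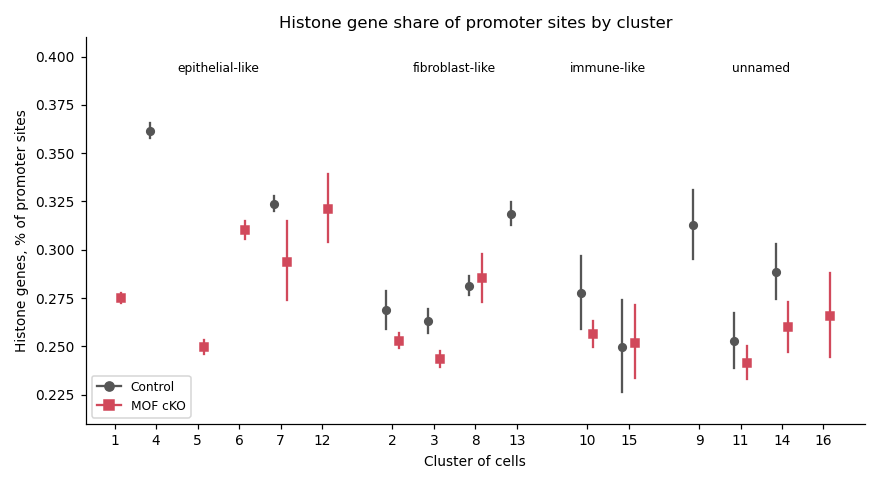
Sites in histone promoter regions as a percentage of all promoter sites (vertical axis, which does not start at 0), for each cluster of cells in Control (circles) and MOF cKO (squares), where a library had at least 20 cells. Bars are 95% counting intervals. MOF cKO clusters 1, 5 and 6 lie below Control clusters 4 and 7, and fibroblast-like cluster 13 lies above the other fibroblast-like clusters in Control.

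The genes that act on histone genes and their mRNA had smaller changes than the histone genes themselves. Over 19 genes of histone transcription and mRNA processing, the median change in epithelial-like cells was -0.48, and 18 were lower in MOF cKO (84.2% of all promoters were). Npat, the coactivator at the histone locus body, had 67.0 CPM in Control and 52.5 CPM in MOF cKO, a change of -0.35 (-0.41 to -0.29), in a region it shares with Atm. Casp8ap2 (FLASH), a partner of NPAT in the same body, had 67.5 and 49.5 CPM, a change of -0.45 (-0.51 to -0.39). Hinfp, the H4 promoter factor, had 63.4 and 44.0 CPM, a change of -0.53 (-0.60 to -0.46). The intervals of Npat and Casp8ap2 included the median of all promoters, and that of Hinfp lay below it. Slbp, whose protein binds the stem-loop of the mRNA, had 58.4 and 42.5 CPM, a change of -0.46 (-0.53 to -0.39). Lsm10 and Lsm11, subunits of the U7 particle that guides the cut of the transcript, had changes of -0.61 (-0.69 to -0.53) and -0.36 (-0.46 to -0.26). Sympk, a scaffold of the cleavage complex, was lowest at -0.76 (-0.84 to -0.68), in a region shared with Foxa3. Gon4l was the exception at 1.34 and 2.35 CPM, a change of 0.81 (0.40 to 1.22). In fibroblast-like cells Gon4l had 1.53 and 3.55 CPM, a change of 1.22 (0.69 to 1.75). It was the 1 gene of the list to rise 2-fold there (0.832% of all promoters did), and without cluster 13 none did (299 of 15763 promoters did). The list's median in fibroblast-like cells was 0.05, and 0.0015 without cluster 13.

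All 11 histone variant genes were lower in MOF cKO epithelial-like cells (84.2% of all promoters were), with a median change of -0.54. The H2A.Z genes H2afz and H2afv had changes of -0.56 (-0.63 to -0.49) and -0.39 (-0.45 to -0.33), and H2afx, whose protein marks DNA breaks, had -0.52 (-0.59 to -0.45). The H3.3 genes H3f3a and H3f3b had changes of -0.62 (-0.70 to -0.54) and -0.54 (-0.60 to -0.48). The macroH2A genes H2afy and H2afy2 had changes of -0.32 (-0.48 to -0.15) and -0.65 (-0.80 to -0.50), and H2afj had -0.54 (-0.62 to -0.45). Cenpa, the centromeric H3, and H1f0, the linker histone of resting cells, had the smallest changes, -0.24 (-0.34 to -0.15) and -0.24 (-0.37 to -0.12). H1fx had the largest change, -0.70 (-0.85 to -0.56). In fibroblast-like cells the variant median was -0.04, and -0.10 without cluster 13.

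The other lists lay between all promoters and the histone genes in epithelial-like cells. The 12 histone chaperone genes, which escort histones to DNA, had a median of -0.52, from -0.70 for Nap1l4 to -0.36 for Supt16. The 33 S phase genes had a median of -0.51, from -0.96 (-1.10 to -0.83) for the primase gene Prim1 to -0.29 for Tyms. All 12 chaperone genes and all 33 S phase genes were lower, and so were 84.2% of all promoters. The 78 cytosolic ribosomal protein genes had a median of -0.52. None of the genes on the chaperone, variant, S phase and ribosomal protein lists fell 2-fold or more in epithelial-like cells (2.27% of all promoters did). None rose 2-fold there (2.49% of all promoters did). In fibroblast-like cells the medians of the chaperone, S phase and ribosomal protein lists were -0.01, -0.03 and -0.01, and -0.02, -0.06 and -0.04 without cluster 13. The histone genes were thus the lowest of these lists by median in both classes of cells, with counts and medians given as a description and no test of the lists.

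**Figure D4:**
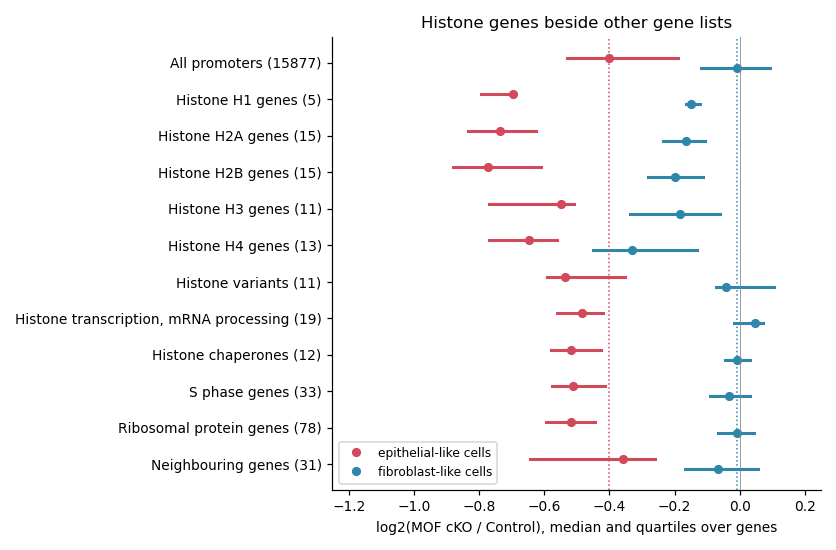
Median (points) and quartiles (bars) of the log2 change (MOF cKO over Control) over the genes of each list in epithelial-like and fibroblast-like cells, with the number of genes with a value in epithelial-like cells in brackets and dotted lines at the medians of all promoters. The 5 histone classes lie furthest to the left in both, from -0.77 to -0.55 in epithelial-like cells.

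The protein-coding genes next to the histone genes had smaller changes, close to those of all promoters. Other protein-coding genes within the clusters or 100 kb of their ends numbered 73, many of them vomeronasal receptor genes without a peak, and 31 had a value. Their median change in epithelial-like cells was -0.36, with 25 of 31 lower (84.2% of all promoters), 2 down and 1 up by 2-fold or more (2.27% and 2.49% of all). On chromosome 13 alone, the 14 neighbours with a value had a median of -0.30 and the 47 histone genes -0.70. The histone genes there lay in 2 blocks 1488 kb apart. The 19 genes of the first block, from Hist1h2bl to Hist1h2bj, had a median of -0.77, and the 28 of the second, from Hist1h4h to Hist1h1a, had -0.62. Around all the clusters, 241 regions other than promoter regions had a median change of -0.28 in epithelial-like cells, and 153 of them (63.5%) were lower. Over all distal regions, which lie more than 2000 bp from any start, the median was 0.05 and 47.6% were lower. The 241 were not held to that distance, so the sets are unlike. In fibroblast-like cells the medians of the 2 sets were -0.15 and -0.21, and without cluster 13 they were 0.03 and 0.05, so their direction rested on that cluster.

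**Figure D5:**
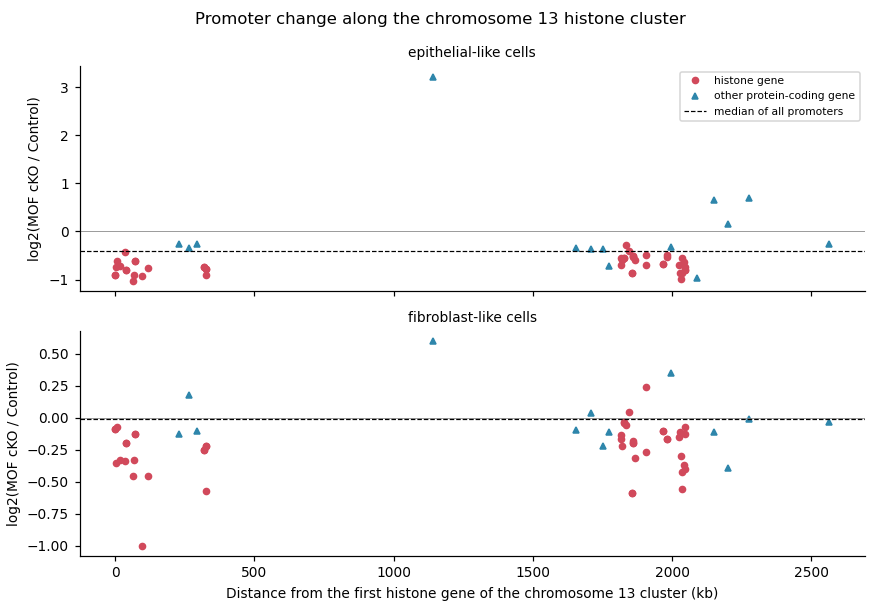
Log2 change (MOF cKO over Control) of histone genes (circles) and other protein-coding genes (triangles) by distance in kb from the first histone gene of the chromosome 13 cluster, in epithelial-like cells above and fibroblast-like cells below. The dashed line is the median of all promoters. In epithelial-like cells the histone genes lie mostly below it in both blocks while most neighbours lie close to or above it, and the highest triangle is Vmn1r211 at 3.23, named after its value was seen.

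The histone classes kept their order of change only in part between the cell classes. In fibroblast-like cells the medians were -0.15 for H1, -0.16 for H2A, -0.20 for H2B, -0.18 for H3 and -0.33 for H4, and without cluster 13 they were -0.14, -0.15, -0.15, -0.17 and -0.29 in the same order. Windows with few repeats had about the same median as the others in epithelial-like cells, with of -0.69 over 19 genes with under 20% of words repeated and -0.73 over the other 40. Genes with a region of their own had a median of -0.69 (37 genes), and those that shared a region with another histone gene -0.74 (22 genes). Level of accessibility was measured here and not transcription, and a lower value can come from fewer cells with an open promoter or from fewer sites in each, which these sums do not separate.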

How the data were processed

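The deposited matrices hold raw counts of transposase cut sites per peak and barcode, made by the authors with Cell Ranger ATAC on mm10 (GRCm38), which called peaks and cells for 1 library at a time, and hold no normalization. The labels' processing notes also name Cell Ranger ARC. Peak lists were merged, and the 214119 regions with a peak from each library were kept. Barcodes with at least 1000 sites were kept as cells (2481 Control, 4348 MOF cKO). Latent semantic indexing of 50000 regions and Leiden clustering at resolution 1 gave 16 clusters, named where at least 3 markers of a class were 2-fold up, no other class had more markers among the top 10 genes, and a shallow cluster had 1 of its own there, which left out cluster 9 (334 shallow Control cells with epithelial markers). Doublets were scored from simulated cell sums and kept. Sites were summed per class and library, a gene with several regions taking their sum, and features with at least 20 sites were used. Since most fragments give 2 sites to a peak, intervals were exact binomial and Poisson at 95% on fragments (sites divided by 2). With 1 library per genotype they cover counting error only, and they are too narrow where fragments are not independent. Genes on strands that overlap share their sites, which have no strand.

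Tools were Python 3.11.15, scipy 1.17.1, numpy 2.4.6, scikit-learn 1.9.0 and leidenalg 0.10.2. The interval calculation was tested on simulated Poisson counts with 2 sites per fragment. That is the model it assumes, so the test does not show how well the intervals cover the real counts. Promoter sequences and start sites came from RefSeq (GRCm38) and GENCODE. The repeated share is the percentage of 50-base words within 500 bp of a start that occur elsewhere in the genome. The histone genes, the lists and the comparisons were chosen with earlier results of these data known. Named were the 2 genes with the most sites in each class, the 5 with the lowest and the 5 with the highest change among those with at least 500 sites, the testis genes, the genes without a value, the histone variants, and from other lists a few set regulators and the extremes. Alternatives covered scaling, promoter window, regions, filters, thinning, doublets, clustering and repeats.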

Additional observations from a re-analysis of the deposited data

Results flagged for a closer look

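Hist1h1e, the gene of linker histone H1.4, lay on opposite sides of 0 in the cell classes, with both counting intervals away from 0. Its log2 change was -0.69 in epithelial-like cells (13.1 CPM in Control, 8.12 CPM in MOF cKO) and 0.24 in fibroblast-like cells (12.8 and 15.1 CPM). The difference was not tested, since each genotype has 1 library. Without the deep cluster 13 the fibroblast-like change was 0.18 (-0.04 to 0.40), an interval that includes 0. The direction also depended on the scale. Per cell, with cluster 13 included and depth not scaled out, all 59 histone genes, Hist1h1e among them, were lower in fibroblast-like cells (97.59% of all promoters were).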

How the results depend on the processing

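Over 20 alternatives the epithelial-like histone median stayed below 0, from -0.84 to -0.30, and its distance to the median of all promoters ran from -0.35 to -0.19. The fibroblast-like median also stayed below 0, from -0.80 to -0.03. Of the values of these summaries and of the counts of genes, 47 moved and 93 did not. Of those of single named genes in epithelial-like cells, 94 moved by more than their counting error, 281 did not, and 5 changed sign. Hist1h4f was 0.12 with median-of-ratios over promoters and 0.11 when scaled to promoter sites, and Hist2h3c2 was -0.92 with a window of 100 bp, -0.0046 with 1000 bp and -0.029 in thinned cells. Some of the values that did not move could not have done so. The distance to all promoters is the same under any total, and filters on which genes are listed leave a gene's own value as it was. The epithelial-like count of 2 genes down 2-fold or more (2.27% of all promoters) was 15 when scaled to all peaks (4.16% of all promoters) and 6 in thinned cells (3.18% of all). It was 0 with median-of-ratios over promoters (0.529%) or promoter sites (0.535%). It was 1 per cell (2.01%), with a window of 1000 bp (2.13%), for cells with a site (1.54%), at Leiden resolution 0.5 (2.54%) and with median-of-ratios over shared regions (2.01%). In fibroblast-like cells this count of 0 (3.67% of all) was 13 per cell (9.42% of all). It was 1 with all peaks (3.95% of all), with peaks of either library (4.64%) and for cells with a site (3.11%). It was also 1 without high doublet scores (0.944%), at resolution 0.5 (0.800%) and without clusters 12 and 13 (0.806%). The fibroblast-like count of 55 lower genes (52.6% of all) was 35 for cells with a site (28.3% of all) and 31 with median-of-ratios over shared regions (19.3% of all). In thinned cells it was 41 of 56 (51.3% of all), which was counted as not moved. Scaling moved the level most. The epithelial-like median was -0.84 when scaled to all peaks of a library, -0.67 per cell, -0.30 with median-of-ratios over promoters, -0.31 when scaled to promoter sites, and -0.67 with median-of-ratios over shared regions (added after seeing the data). The fibroblast-like median was -0.24 with all peaks and -0.026 with median-of-ratios over shared regions. Per cell, where depth is not scaled out, it was -0.80 and passed the epithelial-like one, with cluster 13 included and not computed without it. Counting cells with a site gave -0.53 and -0.027 for these medians, -0.19 for the distance to all promoters and -0.21 for the share, while thinning cells to 5000 sites gave -0.73, -0.12 and -0.35. Leaving out high doublet scores gave -0.72 and -0.15. A window of 100 bp gave an epithelial-like median of -0.72, and a window of 1000 bp a share change of -0.29. Counting shallow unnamed clusters gave -0.72, and -0.32 for the distance. Leiden resolution 0.5 gave -0.16 in fibroblast-like cells, -0.28 for the distance and -0.30 for the share. Each region once gave -0.17, windows with under 20% repeats -0.17 and a share change of -0.33, no clusters 12 and 13 (added later) -0.16, and peaks of either library a distance of -0.32. The causes were not tested. No paired analysis was possible because each genotype has 1 library, and no replicate could be left out. The 46 Control immune-like cells limit the precision there.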
